A study of Mus musculus with 6 samples.

Results

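Bone morphogenetic proteins (BMPs) are secreted growth factors of the TGF-beta superfamily, and this account follows 10 genes that carry their signal in cultured bone marrow stromal cells (BMSCs) of mice aged 18 months and 3 months. The genes were the ligands Bmp2, Bmp4 and Bmp6, the receptors Bmpr1a and Bmpr2, the signal transducers Smad1 and Smad5, and the targets Id1, Id2 and Id3. They were taken by gene symbol from the platform annotation, 10 of 30792 genes with a single-gene probe set, and each had 1 probe set. RNA was measured on 6 Affymetrix arrays, 3 from cells of 18-month-old mice and 3 from cells of 3-month-old mice. In both ages, femur cells released by crushing and collagenase were sorted as Sca-1+ CD29+ CD45- CD11b- and expanded in culture past the first passage, with no further treatment given in the labels. Every sample title marks its array as a biological replicate, but the labels give no strain, sex or number of animals behind it. The p-values therefore reflect array-to-array spread, and the part of it that lies between animals is not known. The labels name no batch of culture or hybridisation either, and batch and age cannot be told apart.

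A BMP dimer brings together type I receptors, such as the product of Bmpr1a, and type II receptors, such as the product of Bmpr2. The activated type I receptor phosphorylates SMAD1 and SMAD5, which enter the nucleus with SMAD4 and switch on target genes, among them the Id genes. ID proteins are helix-loop-helix proteins without a DNA-binding region that hold E proteins away from DNA, and in marrow stromal cells BMP signalling is known for driving the osteoblast lineage. The arrays measured transcripts, and neither receptor activity nor SMAD phosphorylation.

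The 250 bases before the annotated start of Bmp4, Id2 and Id3 are shown, as these 3 genes had the largest measured age differences of the 8 with a promoter entry in the RefSeq table (build GRCm38.p6). Bmp2 and Id1 had no entry. Capitals mark matches on either strand to 2 motifs found in published BMP and SMAD response elements. The first, GGCGCC, reads the same on both strands. The second, CAGAC, appears as its reverse complement where it lies on the other strand, and no matches of the 2 motifs overlapped. The Bmp4 window is chr14:46390670-46390919 on the minus strand, the Id2 window is chr12:25096093-25096342 on the minus strand, and the Id3 window is chr4:136143572-136143821 on the plus strand.
Bmp4: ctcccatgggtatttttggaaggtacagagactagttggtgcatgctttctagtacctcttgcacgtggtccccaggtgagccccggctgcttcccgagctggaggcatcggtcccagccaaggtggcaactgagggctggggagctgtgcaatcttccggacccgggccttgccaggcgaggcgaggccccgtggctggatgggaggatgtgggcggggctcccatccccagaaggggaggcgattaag
Id2: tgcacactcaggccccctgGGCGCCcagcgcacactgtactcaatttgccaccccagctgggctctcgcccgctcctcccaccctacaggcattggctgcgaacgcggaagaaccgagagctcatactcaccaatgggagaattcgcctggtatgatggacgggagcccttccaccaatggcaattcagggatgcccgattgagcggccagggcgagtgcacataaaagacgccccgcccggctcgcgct
Id3: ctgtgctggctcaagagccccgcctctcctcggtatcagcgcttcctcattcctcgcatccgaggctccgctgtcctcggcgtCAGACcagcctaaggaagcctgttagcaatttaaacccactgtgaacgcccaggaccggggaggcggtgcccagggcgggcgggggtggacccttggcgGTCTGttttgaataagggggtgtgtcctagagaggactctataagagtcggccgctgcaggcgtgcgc

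The Id2 window held 1 GGCGCC, whose first base lay 231 bases before the start. The Id3 window held 2 matches to CAGAC, at 167 and 68 bases before the start, and the Bmp4 window held neither motif. Among the other members, GGCGCC was found once each before Bmpr1a and Bmpr2 and before 1 of the 3 annotated starts of Smad5. CAGAC was found once before Bmp6 and once before another start of Smad5, and the Smad1 window held neither. Of 32817 windows of the same length, 9.59% held GGCGCC and 42.2% held CAGAC. A match describes letters in the window, not a bound site.

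Array medians of the transcript clusters lay between 5.39 and 5.44 on the deposited log2 scale, and arrays of an age correlated at r of 0.995 to 0.999 across genes, against 0.976 to 0.978 between ages. Across the negative control probe sets, 95% had a mean below 7.61, so a mean under 7.61 is within their range and no fold is given for such a gene. Control probe sets also differed by age, with a median difference (18 minus 3 months) of -0.26 for the 5222 negative controls and -0.15 for the 1324 positive controls. Single negative controls differed by -2.36 to 1.86 and single positive controls by -1.21 to 1.48. The 23 antigenomic background probe sets, which match no mouse sequence, moved the other way, with a median of 0.11 and a range of 0.0060 to 0.29. Their median level was 4.73, near the 4.79 of the negative controls, but their 95th percentile was 8.94. That percentile lies above both means of Id1, Id2, Id3 and Smad5, and above the 3-month mean of Bmp4 (8.82). The value of 7.61 is thus not a ceiling for all background probe sets. The number of arrays limits the precision. The sort marker Itgb1, which encodes CD29, was bright at 11.76 in 18-month and 11.86 in 3-month cells. The genes of the excluded markers were within the negative control range, with Ptprc (CD45) at 3.62 in 18-month and 3.65 in 3-month cells and Itgam (CD11b) at 5.24 in 18-month and 5.26 in 3-month cells. Ly6a, the gene of Sca-1, was not analysed here for lack of a probe set of its own.

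Across the pathway, Bmp4 and the targets Id1, Id2 and Id3 rose with age, and Bmpr2 and Smad1 fell slightly. Bmp2, Bmp6, Bmpr1a and Smad5 did not pass the test. All 10 genes lay above the intensity filter, so all were tested with the other genes by limma, with p-values adjusted by Benjamini-Hochberg over 20247 genes and a threshold of 0.05. By that rule 6 of the 10 genes were called, 4 higher and 2 lower at 18 months, in a comparison where 40.7% of all genes were called, 18.5% higher and 22.2% lower. In 7 of the 10 genes no 18-month value fell among the 3-month values, as in 51.4% of all genes tested. The median difference of the 10 was 0.07 on the log2 scale, beside 0.01 for all genes tested, so the genes did not move as a block. In a bulk sample of cultured cells, more cells of a kind and more RNA per cell cannot be told apart.

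**Figure D1:**
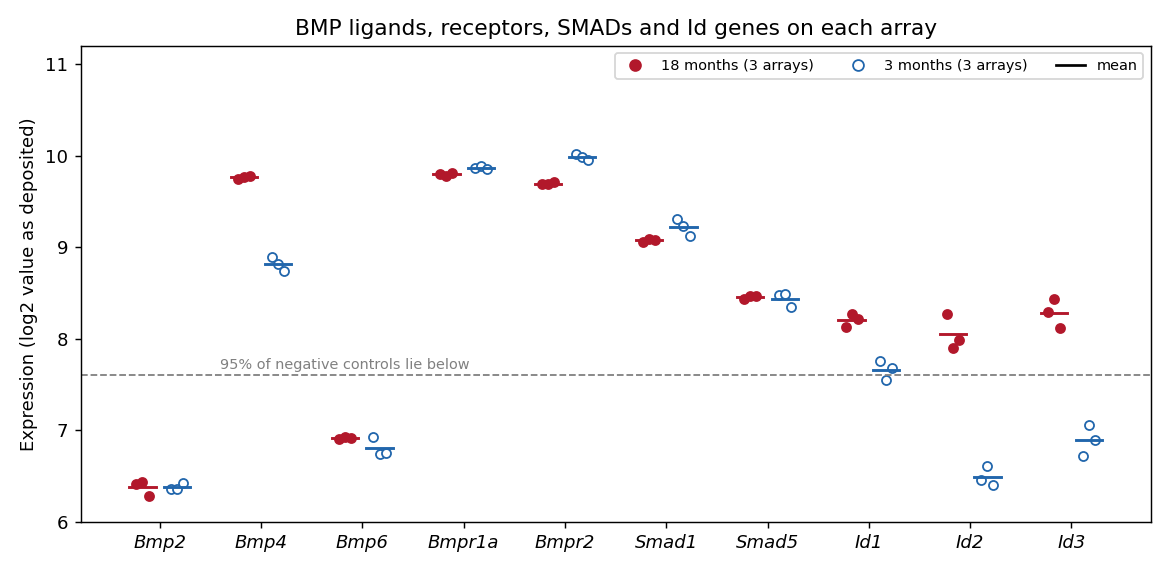
Deposited log2 expression value (vertical axis) of each of the 10 genes, with 3 arrays of 18-month cells (filled) left of 3 arrays of 3-month cells (open), horizontal bars for the means and a dashed line at 7.61. Bmp4, Id1, Id2 and Id3 have all 18-month points above all 3-month points, and the 3-month points of Id2 and Id3 lie under the dashed line.

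Of the 3 ligands, Bmp4 passed the test and rose. BMP4 is a growth factor of early mesoderm and of bone and fat lineage choice. Its log2 values were 9.75, 9.77 and 9.78 in 18-month cells, against 8.89, 8.82 and 8.74 in 3-month cells. All 18-month arrays exceeded all 3-month arrays, with 0.86 between the nearest arrays of the 2 ages. The means were 9.76 ± 0.02 and 8.82 ± 0.08 in 18-month and 3-month cells (SD, n = 3 each). The difference of 0.95 (95% interval 0.85 to 1.04) is a 1.93-fold rise (limma, adjusted p = 3.91e-07). The 3-month mean of Bmp4 lay below the antigenomic 95th percentile of 8.94, and the 18-month mean above it. Of all genes tested, 2.22% rose by more than Bmp4.

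Bmp2, a strong inducer of bone formation, was dim in both ages. Its values were 6.41, 6.43 and 6.28 in 18-month cells, against 6.35, 6.36 and 6.42 in 3-month cells. The ages overlapped fully, and all 6 values lay within the negative control range. The difference was -0.0037 with a 95% interval of -0.14 to 0.13 (limma, adjusted p = 0.968). Bmp6, which also acts on liver hepcidin and so on iron balance, had values of 6.91, 6.92 and 6.92 in 18-month cells, against 6.93, 6.74 and 6.75 in 3-month cells. Of the 3-month arrays, replicate 1 lay above every 18-month array and the other two below, all within the negative control range. The difference was 0.11 with an interval of -0.03 to 0.25 (limma, adjusted p = 0.2). Without 3-month replicate 1 it was 0.17 and passed (limma, adjusted p = 0.0134), so this array decides the call on Bmp6.

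Both receptor genes were well above the negative controls, and both were slightly lower at 18 months. Bmpr2, the type II receptor for BMPs, had values of 9.69, 9.69 and 9.71 in 18-month cells, against 10.01, 9.99 and 9.96 in 3-month cells. The ages did not overlap and were 0.25 apart at the nearest arrays. Bmpr2 differed by -0.29 (95% interval -0.36 to -0.22), and the level in 3-month cells was 1.22-fold that in 18-month cells (limma, adjusted p = 6.44e-05). Bmpr1a, the type I receptor also called ALK3, had values of 9.80, 9.77 and 9.81 in 18-month cells, against 9.87, 9.88 and 9.85 in 3-month cells. These did not overlap either, but the nearest arrays were 0.04 apart, and the difference of -0.07 did not pass (95% interval -0.14 to -0.01, limma, adjusted p = 0.0788). Without 3-month replicate 3 it was -0.08 and passed (limma, adjusted p = 0.0426). Beside these differences stand the median shifts of -0.26, -0.15 and 0.11 in the negative, positive and antigenomic control probe sets. After median centring and quantile normalization, Bmpr2 differed by -0.27 and -0.26 and passed in both. Bmpr1a then differed by -0.05 and -0.04 and passed in neither. The part of the control shifts in the receptor differences was not tested.

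The receptor-activated SMADs Smad1 and Smad5 encode close relatives that carry the same signal. Smad1 had values of 9.06, 9.10 and 9.08 in 18-month cells, against 9.31, 9.23 and 9.12 in 3-month cells. The nearest arrays of the 2 ages were 0.02 apart, and the 3-month arrays spanned 0.19. The difference of -0.14 (95% interval -0.25 to -0.03) passed narrowly (limma, adjusted p = 0.045), and it is smaller than the median shift of the positive controls. Without any 1 array other than 3-month replicate 3, it no longer passed (limma, adjusted p = 0.0798 to 0.139), and without that array it was -0.19 (limma, adjusted p = 0.00245). Smad5 had values of 8.44, 8.47 and 8.46 in 18-month cells, against 8.48, 8.48 and 8.34 in 3-month cells. These overlapped, and the difference was 0.02 with an interval of -0.08 to 0.13 (limma, adjusted p = 0.749).

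**Figure D2:**
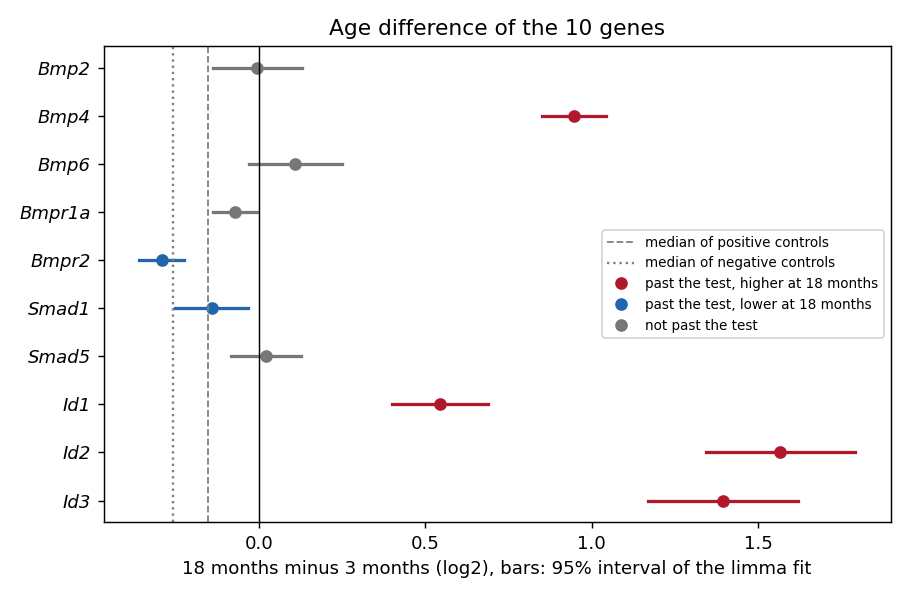
Difference of each of the 10 genes, 18 minus 3 months on the log2 scale (horizontal axis), with the 95% interval of the limma fit as a bar and the median differences of the positive and negative control probe sets as dashed and dotted lines. Id2, Id3, Bmp4 and Id1 lie to the right of 0, between 0.54 and 1.57, and Bmpr2 and Smad1 lie at -0.29 and -0.14, near the control medians.

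The Id genes rose together, and the intervals of all 3 lay above 0.4. Id1 is widely used as a readout of BMP signalling in cultured cells. Its values were 8.12, 8.28 and 8.22 in 18-month cells, against 7.75, 7.55 and 7.68 in 3-month cells. The ages were 0.37 apart at the nearest arrays, and the 3-month mean, 7.66 ± 0.10, lay just above the negative control range, with 8.20 ± 0.08 in 18-month cells (SD, n = 3 each). The difference of 0.54 (95% interval 0.40 to 0.69) is 1.46-fold (limma, adjusted p = 0.000135).

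Id2, also known for its part in innate lymphoid cells, had the largest measured difference of the 10 genes, with its 3-month mean within the negative control range. Its values were 8.27, 7.89 and 7.99 in 18-month cells, against 6.45, 6.61 and 6.40 in 3-month cells. Replicate 1 was the highest 18-month array, and even the lowest was 1.29 above the highest 3-month array. The means were 8.05 ± 0.20 in 18-month cells and 6.49 ± 0.11 in 3-month cells (SD, n = 3 each), and the difference was 1.57 (95% interval 1.34 to 1.79, limma, adjusted p = 3.35e-06). Id3, also known as a regulator of lymphocyte development, had values of 8.29, 8.44 and 8.12 in 18-month cells, against 6.72, 7.05 and 6.89 in 3-month cells. Here the nearest arrays were 1.07 apart, and the difference was 1.39 (95% interval 1.17 to 1.62, limma, adjusted p = 6.99e-06). The 3-month means of Id2 and Id3 were within the negative control range and the 18-month means above it, so no fold is given. Of all genes tested, 4.8% rose by more than Id1.

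Because many small differences passed here, the test was repeated against a difference of 0.3 on the log2 scale, a size chosen after the data were seen. Bmp4, Id1, Id2 and Id3 passed (limma, adjusted p = 4.54e-06, 0.0227, 1.57e-05 and 4.25e-05, in that order). The other 6 genes differed by less than 0.3 and so could not pass. In that test 9.9% of all genes were called, and 5.83% of all genes were called higher.

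The rest of the pathway was read from lists by role, 65 of 67 genes having a single-gene probe set and 64 passing the filter. By limma, 18 of the 64 were higher and 12 lower at 18 months (adjusted p under 0.05). Over all genes, 18.5% were called higher and 22.2% lower. The median difference of the 64 was 0.03, beside 0.01 for all genes tested. In 33 of the 65 both means were within the negative control range.

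Of 13 genes tested in the list of further BMPs and GDFs, 4 rose and 1 fell, beside 18.5% higher and 22.2% lower over all genes. In 12 of the 14 measured, both means were within the negative control range. The 4 that rose were Bmp1, which is not a ligand, and the dim Bmp8a, Bmp8b and Gdf5. Bmp8a, a ligand known from male germ cells, had values of 7.47, 7.45 and 7.51 in 18-month cells, against 6.06, 6.34 and 6.38 in 3-month cells, with no overlap and all within the negative control range. The difference was 1.22 (limma, adjusted p = 5.06e-06). Bmp1, a protease that trims procollagens and cleaves chordin, rose 1.42-fold, at 10.34 ± 0.04 in 18-month and 9.83 ± 0.10 in 3-month cells (SD, n = 3 each).

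Of 11 further receptors and co-receptors, 2 rose and 3 fell, beside 18.5% higher and 22.2% lower over all genes. In 5 of the 11 both means were within the negative control range. Tgfbr3 (betaglycan), a co-receptor that presents TGF-beta, inhibin and BMP ligands, rose 3.40-fold, the largest difference of the lists at 1.77. Its values were 10.70, 10.69 and 10.69 in 18-month cells, against 9.07, 8.92 and 8.80 in 3-month cells (limma, adjusted p = 8.56e-08). Acvr2a, a type II receptor shared by activins and BMPs, fell by 0.76, with means of 7.67 ± 0.02 in 18-month and 8.43 ± 0.06 in 3-month cells (SD, n = 3 each, limma, adjusted p = 1.64e-06). Bmpr1b, another BMP type I receptor, fell by 0.50, within the negative control range at 5.79 and 6.29 in 18-month and 3-month cells. Acvr1, the type I receptor also called ALK2, was at 8.27 in 18-month and 8.24 in 3-month cells (limma, adjusted p = 0.589). Acvr2b had 2 probe sets, of which the brighter differed by -0.02 and the dimmer by -0.08.

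Of 11 further SMADs and cofactors, 2 rose and 6 fell, in a comparison where 18.5% of all genes were called higher and 22.2% lower. The median difference of this list was -0.21, between the median shifts of the negative (-0.26) and positive (-0.15) control probe sets. The part of the control shifts in this list was not tested. Skil (SnoN), a repressor of SMAD-driven transcription, fell by 0.72, with means of 8.94 ± 0.02 in 18-month and 9.66 ± 0.03 in 3-month cells (SD, n = 3 each, limma, adjusted p = 3.49e-07). Smurf1, a ubiquitin ligase that marks SMAD1 and SMAD5 for degradation, fell by 0.39 (limma, adjusted p = 2.75e-05). Other genes of this list, named here after their values were seen, were the inhibitory Smad6, which rose by 0.18, the inhibitory Smad7, which fell by 0.28, the common partner Smad4, which fell by 0.26, and the BMP transducer Smad9, which rose by 0.42. Smad9 had means of 7.36 in 18-month and 6.94 in 3-month cells, within the negative control range.

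**Figure D3:**
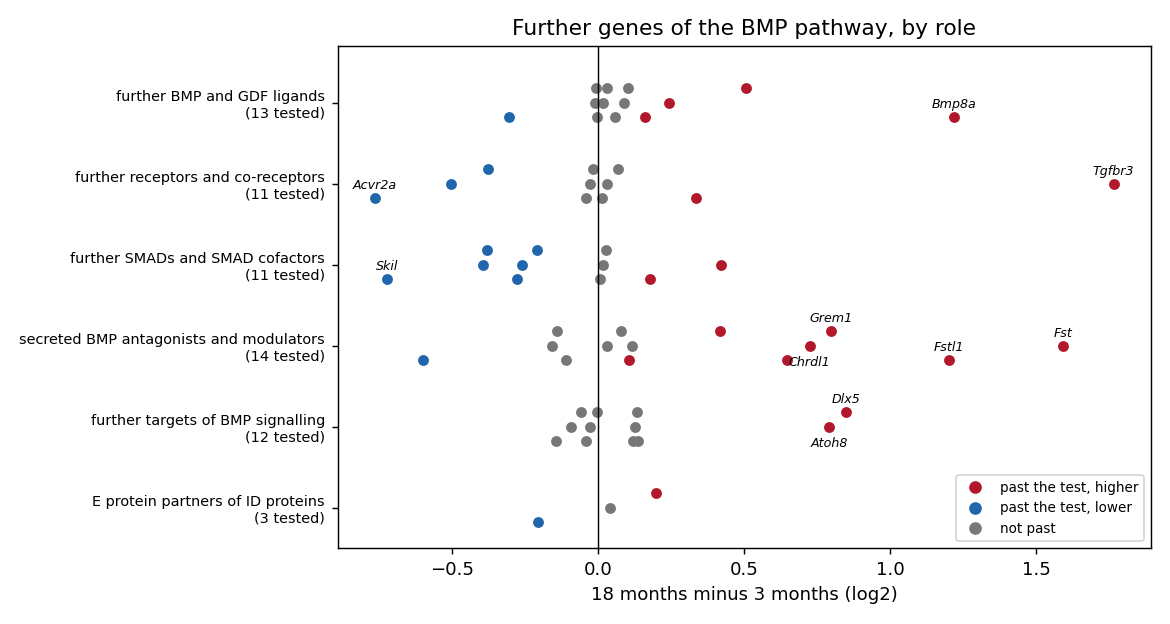
Difference of each further pathway gene tested, 18 minus 3 months on the log2 scale (horizontal axis), in rows by role, coloured by whether it passed the limma test. Tgfbr3, Fst, Bmp8a and Fstl1 lie between 1.20 and 1.77, and Acvr2a and Skil lie at -0.76 and -0.72.

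Of 14 secreted antagonists and modulators tested, 7 rose, 1 fell and 6 did not pass, in a comparison where 18.5% of all genes were called higher and 22.2% lower. In 7 of the 14 both means were within the negative control range. Fst (follistatin), which binds activins and some BMPs, had values of 8.05, 8.11 and 8.07 in 18-month cells, against 6.52, 6.53 and 6.41 in 3-month cells, where all 3 were within the negative control range. It differed by 1.59 (limma, adjusted p = 5.17e-08). Grem1 (gremlin 1), which binds BMP2 and BMP4, rose 1.74-fold (limma, adjusted p = 9.99e-07), with means of 10.06 ± 0.02 in 18-month and 9.26 ± 0.07 in 3-month cells (SD, n = 3 each). Fstl1, a follistatin-like glycoprotein, and Nbl1, a DAN family antagonist, rose 2.30-fold and 1.57-fold. Chrdl1, a chordin-like antagonist, rose by 0.73 within the negative control range. Crim1, a membrane protein that binds BMPs in the cell, fell by 0.60, and Nog (noggin), the classical antagonist, was at 6.64 in 18-month and 6.79 in 3-month cells (limma, adjusted p = 0.0682).

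Of 12 further genes known as targets of BMP signalling, 2 rose, none fell and 10 did not pass. The shares over all genes were 18.5% higher and 22.2% lower. In 7 of the 12 both means were within the negative control range, where a change may go unseen. The 2 that rose, Dlx5 and Atoh8, had 3-month means within that range, at 7.44 and 6.97. Dlx5, a homeobox factor of osteoblasts, had values of 8.33, 8.19 and 8.33 in 18-month cells, against 7.45, 7.30 and 7.55 in 3-month cells, and differed by 0.85 (limma, adjusted p = 1.69e-05). Atoh8, a helix-loop-helix factor, differed by 0.79, with 3-month arrays spread from 6.74 to 7.25 and 18-month arrays from 7.73 to 7.81 (limma, adjusted p = 0.000482). Id4, the other Id gene, was at 7.07 in 18-month and 6.95 in 3-month cells and did not pass (limma, adjusted p = 0.0553), and Msx2 differed by -0.09 (limma, adjusted p = 0.444). Of the E proteins that ID proteins bind, Tcf4 rose by 0.20, Tcf12 fell by 0.20 and Tcf3 did not pass (limma, adjusted p = 0.000443, 0.000576 and 0.376).

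Markers of other cells were read beside the rise of Bmp4 and the Id genes, in a comparison where 18.5% of all genes were called higher and 22.2% lower. All 9 endothelial markers measured had means within the negative control range in both ages. The defining Pecam1 and Cdh5 were at 5.24 and 5.44 in 18-month cells, against 5.20 and 5.45 in 3-month cells, and Pecam1 was too dim to be tested. Of the 6 tested, Kdr rose by 0.69, Tek and Vwf fell by 0.22 and 0.14, and Cdh5 and 2 others did not pass (limma, adjusted p = 1.33e-05, 0.0382 and 0.0409 for the 3 called). The summed linear level of the list, each log2 value taken back to a linear one, was 581 to 592 in 18-month and 534 to 586 in 3-month arrays. All measured markers of blood cells were also within the negative control range. By limma, 0 of 5 pan-haematopoietic and 0 of 5 erythroid and megakaryocyte markers tested passed, with 1 of each at an unadjusted p under 0.05, while 2 of 6 macrophage, 1 of 5 neutrophil and 1 of 3 lymphoid markers rose. These 4 were Cd14 by 0.35, Fcer1g by 0.30, Camp by 0.25 and Nkg7 by 0.22. The summed level was 454 to 479 in 18-month and 433 to 455 in 3-month arrays for pan-haematopoietic markers, and 435 to 468 in 18-month and 396 to 456 in 3-month arrays for erythroid and megakaryocyte markers. It was 602 to 612 in 18-month and 573 to 579 in 3-month arrays for macrophage markers, 378 to 400.4 in 18-month and 339 to 379 in 3-month arrays for neutrophil markers, and 321 to 331 in 18-month and 296 to 328 in 3-month arrays for lymphoid markers.

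By limma, 0 of 5 skeletal muscle markers tested passed, with 1 at an unadjusted p under 0.05 and a summed level of 719 to 755 in 18-month and 636 to 744 in 3-month arrays. Of 7 smooth muscle and pericyte markers tested, 3 were higher and 2 lower, with a summed level of 9753 to 9948 in 18-month and 8463 to 8831 in 3-month arrays. Of 3 osteoclast markers tested 1 rose, Ctsk, by 0.97. The other 2 did not pass, and 5 of the 6 osteoclast markers measured had both means within the negative control range. The summed level of that list was 1353 to 1381 in 18-month and 809 to 860 in 3-month arrays. Ctsk, at 10.04 in 18-month and 9.07 in 3-month cells, made up most of it. A summed level mainly follows the brightest markers of its list. Of 13 stromal markers tested 8 rose and 2 fell, among them Col3a1 and Vcam1, which rose by 1.85 and 1.01, and Nt5e and Itgb1, which fell by 0.54 and 0.10. The summed level of the stromal list was 29933 to 30551 in 18-month and 20361 to 20907 in 3-month arrays. The part of these shifts in the Bmp4 and Id differences was not tested. Other than the sort markers, Col3a1 and Vcam1, the markers named were chosen after their values were seen.

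**Figure D4:**
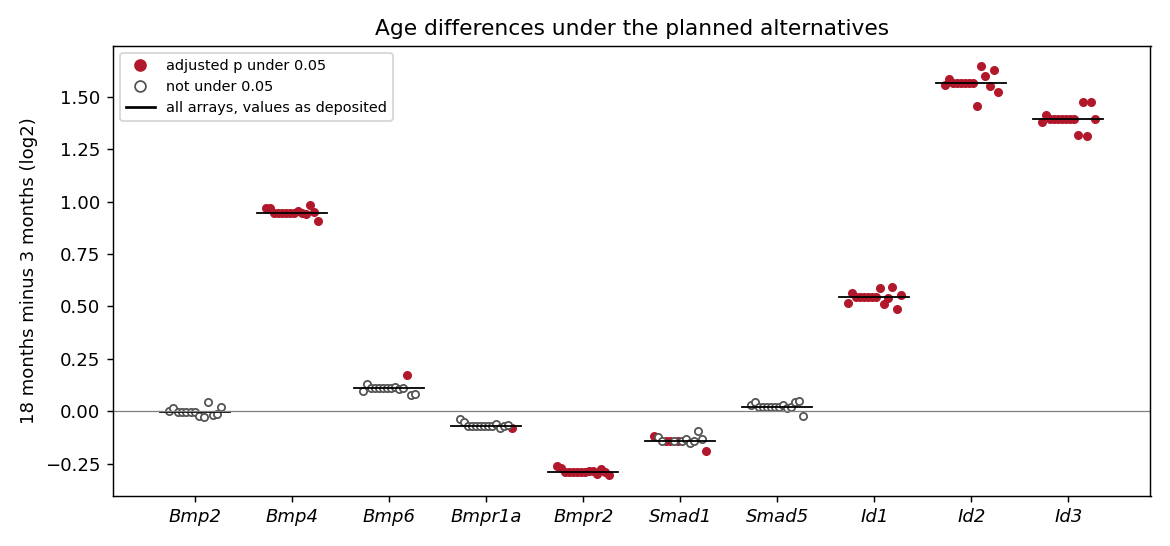
Difference of each of the 10 genes, 18 minus 3 months on the log2 scale (vertical axis), under each of 14 other settings of the processing, 13 for Bmp2, which the stricter filter left out (points, filled where the limma adjusted p was under 0.05), with a bar at the value from all arrays as deposited. Bmp4 stays between 0.91 and 0.98, Id1 between 0.49 and 0.59, Id2 between 1.46 and 1.64 and Id3 between 1.31 and 1.48, and Smad1 crosses the threshold.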

How the data were processed

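The authors deposited 1 log2 expression value for each probe set on each array. The submitters' processing notes name MAS5 without a version, and the background correction, scaling and summary steps are not given there. Base 2 was read from the range of the values, which were used as deposited. Genes were named from the platform annotation, with symbols updated through the RefSeq table of GRCm38.p6. Of 32750 annotated probe sets, 31438 had 1 gene and 1312 several, and 33206 transcript clusters had none listed.

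For each gene the probe set with the highest mean was kept, and genes with a mean under the median transcript cluster (5.40) were not tested. Groups come from the sample titles. Ages were compared with limma 3.58.1 in R 4.3.3 (eBayes with an intensity trend). Differences are 18 minus 3 months. On simulated arrays of 20247 genes with 200 changed, the test recovered 19 of 50 genes changed by 0.25, 46 of 50 by 0.5 and all 50 at 1 and at 2, and called 10 unchanged genes. The simulation gave both ages the same spread. In the data 40.7% of genes were called, and the median SD was 0.036 in 18-month and 0.074 in 3-month arrays. The simulated counts therefore need not hold for these data.

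The members and lists were chosen with earlier results of these data known. The further genes named are those past the test with a difference of at least 0.5, and the 2 with the smallest adjusted p of each list. Markers named are the sort markers and those past the test by at least 1. Other genes named were chosen after their values were seen. Other settings were no filter, a filter at the 70th percentile, quantile normalization, centring on array medians, the mean of a gene's probe sets, no trend, robust estimation, a replicate block, each array left out, and the test against 0.3.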

Additional observations from a re-analysis of the deposited data

How the results depend on the processing

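Bmp4, Id1, Id2 and Id3 kept their direction and passed under all 14 other settings of the processing and against a difference of 0.3. The filters, the mean of probe sets, no trend, robust estimation and the replicate block cannot change a member's difference, only its p-value. Direction and size could vary only under quantile normalization, under median centring and with an array left out. Bmpr2 kept its call under the same 14 settings. Its difference of -0.29 is smaller in size than 0.3, so it could not pass against 0.3. Smad1 did not pass under median centring, with no filter, without the intensity trend or with the replicate block (limma, adjusted p = 0.146, 0.0685, 0.0712 and 0.0673), each of which left 1 member called lower. Those settings called 3859 to 4451 genes lower over all genes. Smad1 passed after quantile normalization (limma, adjusted p = 0.0365). The cause was not tested. With each array left out in turn, 1 to 3 members were called lower, 3 of them without 3-month replicate 3. Over all genes, 3740 to 4979 were then called lower, against 4493 of 20247 with all arrays. The most, 4979 of 20258, were also called without 3-month replicate 3. Against 0.3, 0 members were called lower (limma), 2004 genes were called in all, 1180 higher and 824 lower, and 10 further pathway genes were higher and 4 lower, fewer by construction. The difference of Bmp2, which never passed, changed sign to 0.00093 after quantile normalization and 0.016 after median centring, and ranged from -0.030 to 0.042 with an array left out; the stricter filter left Bmp2 untested. That of Smad5 ranged from -0.024 to 0.047 with an array left out. Same-numbered arrays correlated at -0.05, 0.07 and 0.02 in their deviations from the group means, and arrays of different numbers at -0.08 to 0.04. These values show no pairing by replicate number, but 3 arrays of each age cannot settle whether arrays were paired. With the replicate block 7766 genes were called, against 8233 without it, and of the members the call on Smad1 changed. Members within the negative control range, Bmp2 and Bmp6 in both ages and Id2 and Id3 at 3 months, are limited by signal over background.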
